A study of Mus musculus with 6 samples.

Results

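Btla, Lair1, Cd300a, Cd300lf, Sirpa, Pilra, Cd200r1 and Lilrb3 code for inhibitory receptors of the cell surface, and their signals were followed in granulocyte/macrophage progenitors (GMPs) of mice that lack IRF8, or IRF8 together with IRF4. The members were all probe sets whose platform symbol or current alias is one of these 8 names. All 8 genes were found among the 18193 genes that a probe set names alone, with 14 probe sets, of which 13 passed a filter on low values. Lilrb3 was found under its current symbol Pirb, and 3 further probe sets annotated to Pirb together with Pira genes were not counted as members. These genes were selected on earlier results of the same 6 arrays, so every genotype difference given for them below is a description without a test. The lists of related genes, Cd300lb among them, were also chosen with earlier results of these data known. Counts of calls over those lists are therefore descriptions too.

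The genotypes of BL6 mice were 3, with 2 arrays each. The IRF4/8 DKO group lacks both transcription factors and came from a male (replicate 1) and a female (replicate 2), both 16 weeks old. The IRF8 KO group lacks IRF8 and came from a female of 12 weeks (replicate 1) and a male of 22 weeks (replicate 2). The WT group came from a male of 12 weeks (replicate 1) and a female of 19 weeks (replicate 2). IRF8 deficiency is thus shared by both mutant groups, and the series asks how the deficiencies of IRF4 and IRF8 act together in blood cancers. The sources used here do not say whether the mutant mice already had disease. GMPs, the marrow precursors of granulocytes and monocytes, had been sorted as lineage-negative, IL-7R-negative and Sca1-negative cells that carry Kit, CD34 and high levels of FcRII/III, and biotinylated cRNA was hybridised to Affymetrix Mouse Genome 430 2.0 arrays. Values are intensities on a linear scale as the authors normalized them with dChip.

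Inhibitory receptors restrain signals from activating receptors. Most carry short tyrosine motifs (ITIMs) in their cytoplasmic tails. Once Src family kinases phosphorylate these, the tails recruit the phosphatases SHP-1 and SHP-2, encoded by Ptpn6 and Ptpn11, or the lipid phosphatase SHIP-1, encoded by Inpp5d. In myeloid cells such receptors dampen activation, phagocytosis and cytokine release, and several are arranged as pairs with activating relatives that signal through the adaptors DAP12 (Tyrobp) or the Fc receptor gamma chain (Fcer1g).

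IRF8 and IRF4 bind DNA at repeats of the GAAA type, on their own or beside the ETS factor PU.1, so the sequence around the start of each gene is shown where such letters were found. RefSeq promoters (build GRCm38.p6, 250 bases before to 50 bases after the start) were matched for 6 of the 8 genes, Sirpa and Cd200r1 being the other two. The patterns searched on both strands: GAAANNGAA (IRF repeat), GGAANNGAA (ETS-IRF) and GAGGAAGT (PU.1). The IRF and ETS-IRF patterns were in 8.56% and 8.24% of all 32851 promoters of this length, and the PU.1 pattern in 3.2%. The promoters of Btla (chr16:45224087-45224386, plus strand), Cd300lf (chr11:115133943-115134242, minus strand) and Pilra (chr5:137836229-137836528, minus strand) held an IRF repeat and are printed 5′ to 3′ with every match in capitals:
Btla: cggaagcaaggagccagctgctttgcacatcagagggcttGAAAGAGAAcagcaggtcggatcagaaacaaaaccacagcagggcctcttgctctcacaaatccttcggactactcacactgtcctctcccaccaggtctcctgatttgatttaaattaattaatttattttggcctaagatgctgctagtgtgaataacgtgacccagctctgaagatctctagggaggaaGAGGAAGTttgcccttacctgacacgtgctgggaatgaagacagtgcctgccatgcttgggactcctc
Cd300lf: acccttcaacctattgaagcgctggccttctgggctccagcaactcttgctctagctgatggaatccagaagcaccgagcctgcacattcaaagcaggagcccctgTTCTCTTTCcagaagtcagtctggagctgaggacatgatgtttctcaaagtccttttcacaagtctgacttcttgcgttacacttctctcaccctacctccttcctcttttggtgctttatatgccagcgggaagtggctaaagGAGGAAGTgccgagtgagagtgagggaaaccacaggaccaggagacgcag
Pilra: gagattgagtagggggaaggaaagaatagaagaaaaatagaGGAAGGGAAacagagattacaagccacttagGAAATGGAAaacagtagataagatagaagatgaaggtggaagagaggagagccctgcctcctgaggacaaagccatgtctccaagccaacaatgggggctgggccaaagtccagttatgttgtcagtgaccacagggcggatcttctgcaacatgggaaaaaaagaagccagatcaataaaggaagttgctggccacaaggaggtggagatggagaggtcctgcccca
In Btla the IRF match GAAAGAGAA began 210 bases before the start and the PU.1 match 18 bases before it. In Cd300lf the IRF match lay on the opposite strand, with its first printed base 144 bases before the start, and the PU.1 match began at the start itself. Pilra had the IRF match GAAATGGAA 178 bases and the ETS-IRF match GGAAGGGAA 209 bases before the start. The Lilrb3 promoter held a PU.1 match 120 bases before the start, and those of Lair1 and Cd300a held none of these letters. A match is a stretch of letters and was not set against binding data.

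Background values of the arrays were as follows. Median intensities were 37.5 and 34.1 in IRF4/8 DKO, 38.6 and 38.4 in IRF8 KO, and 45.3 and 41.7 in WT. Log2 values of a genotype's 2 arrays, taken across probe sets that are not independent of each other, had a correlation of 0.952 in IRF4/8 DKO, 0.912 in IRF8 KO and 0.968 in WT, and 4230, 7160 and 1863 probe sets in that order differed over 2-fold between the arrays. The IRF8 KO replicates therefore stood furthest apart, which touches Lair1, Cd300a and Lilrb3 below. Markers of the sorted cells were present on every array: Mpo (12946 to 15417), Elane (7434 to 9950.0) and Kit (1680 to 2426) are in the range of all 6 arrays. Cd34, a gate marker, read 590.3 and 508.7 in IRF4/8 DKO, 440.3 and 668.6 in IRF8 KO, and 1747 and 1401 in WT, and Fcgr3 was higher on all 4 mutant arrays (2516 to 6315) than in WT (1090 and 1259). Irf8 signal was not lower in the mutants, at 2611 and 4778 in IRF4/8 DKO, 3811 and 2602 in IRF8 KO, and 2588 and 3052 in WT for the brighter of its probe sets. The dimmer one read 933.7 and 1900 in IRF4/8 DKO, 1333 and 1131 in IRF8 KO, and 506.9 and 704.5 in WT. The brighter Irf4 probe set read 66.0 and 54.6 in IRF4/8 DKO, 13.8 and 7.66 in IRF8 KO, and 32.1 and 23.5 in WT. The dimmer Irf4 probe set read 11.8 and 20.15 in IRF4/8 DKO, 29.7 and 14.1 in IRF8 KO, and 33.1 and 16.8 in WT. The Irf4 probe sets thus had opposite signs for IRF4/8 DKO against WT (log2 differences 0.89 and -0.40). The sources used here do not say which exons were deleted, so these probe sets do not check the genotype labels.

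Btla, the B and T lymphocyte attenuator, binds the TNF receptor family member HVEM and is best known from lymphocytes. It was the member whose genotypes stood furthest apart. Its probe set read 275.2 and 424.9 in IRF4/8 DKO, 44.9 and 34.4 in IRF8 KO, and 143.8 and 201.4 in WT. No 2 genotypes overlapped, with IRF4/8 DKO highest and IRF8 KO lowest. The order was the same among males (275.2 in IRF4/8 DKO, 34.4 in IRF8 KO, 143.8 in WT) and among females (424.9, 44.9 and 201.4). Means were 350 ± 105.8 in IRF4/8 DKO, 39.6 ± 7.40 in IRF8 KO and 172.6 ± 40.7 in WT (SD, n = 2 each). The fitted log2 difference was 2.82 ± 0.44 (SE) for IRF4/8 DKO against IRF8 KO, a 7.07-fold higher level in IRF4/8 DKO. Against WT it was 0.96 ± 0.44 in IRF4/8 DKO (1.95-fold higher) and -1.86 ± 0.44 in IRF8 KO (3.63-fold lower). These differences are on the scale of log2(intensity + 10.5), which understates changes of low signals. In bulk RNA a lower level in each cell and fewer cells that carry the transcript cannot be told apart.

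**Figure D1:**
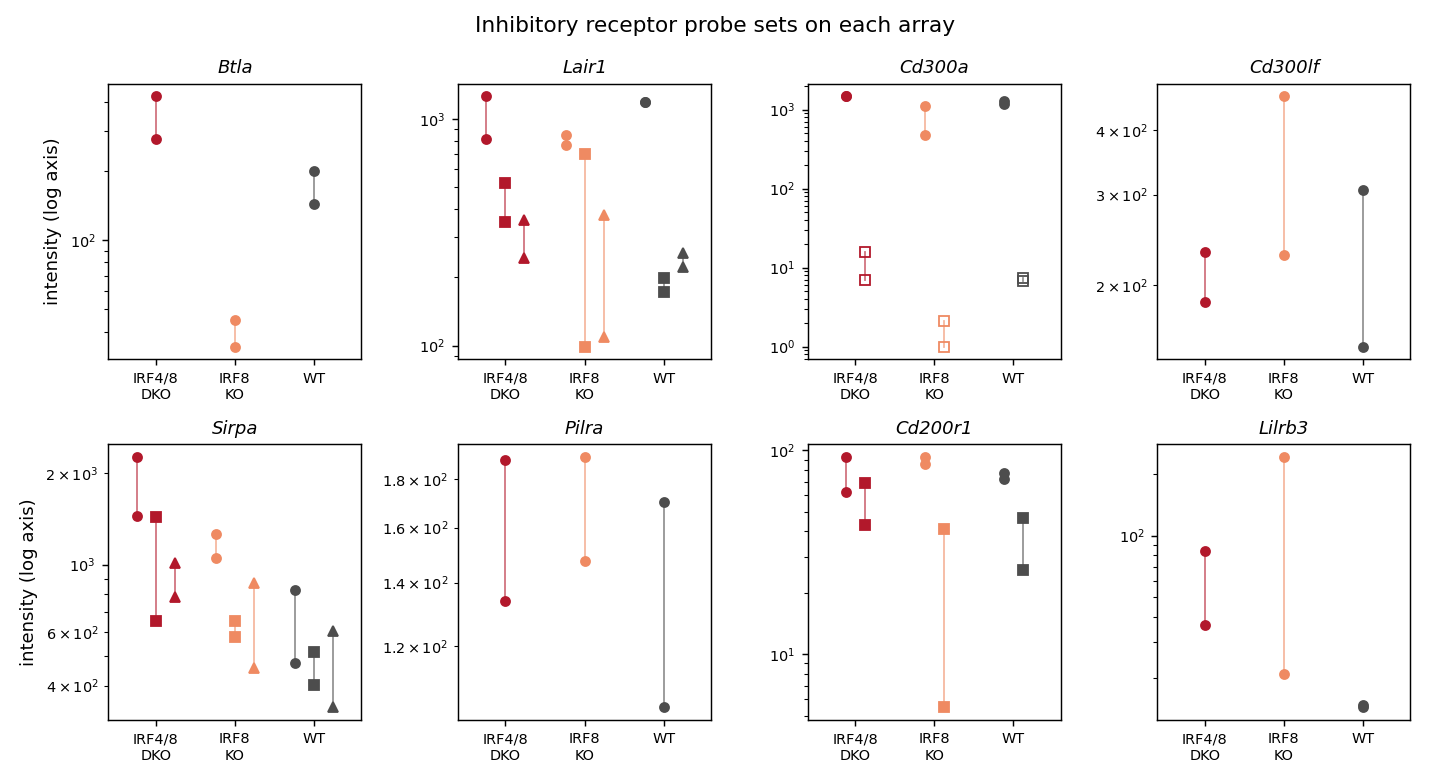
Intensity (log axis, with its own range in each panel) of every probe set of the 8 genes on each array, with IRF4/8 DKO left, IRF8 KO in the middle and WT right; each point is 1 array, a line joins the 2 arrays of a genotype, marker shapes separate probe sets of a gene, and open squares are the Cd300a probe set that did not pass the filter. Btla separates into 3 levels (275.2 and 424.9, 44.9 and 34.4, 143.8 and 201.4), whereas Lilrb3 spans 20.8 to 243.6 within IRF8 KO alone.

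The CD300 family forms a cluster of 11 genes from Cd300a to Cd300lf on chromosome 11, of which 5 gave a kept probe set. Several CD300 receptors recognise lipids such as phosphatidylserine on dying cells. Cd300a, an ITIM-bearing member at one end of the cluster, read 1484 and 1470.2 in IRF4/8 DKO, 1116 and 480 in IRF8 KO, and 1168 and 1306 in WT. As for Btla, both IRF4/8 DKO arrays lay above and both IRF8 KO arrays below both WT arrays, with little room between the higher IRF8 KO array (1116) and the lower WT array (1168). The log2 difference was 1 ± 0.43 (SE) for IRF4/8 DKO against IRF8 KO, 0.26 ± 0.43 in IRF4/8 DKO and -0.74 ± 0.43 in IRF8 KO, each against WT. The second Cd300a probe set read at most 15.9 on any array and did not pass the filter. Of all kept probe sets, 1.53% showed the arrangement of Btla and Cd300a and 1.72% the opposite one, with both IRF4/8 DKO arrays below and both IRF8 KO arrays above WT.

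Cd300lf, the inhibitory receptor CLM-1 at the other end of the cluster, had overlapping genotypes. It read 232.1 and 185.6 in IRF4/8 DKO, 229.2 and 466.2 in IRF8 KO, and 306.6 and 152 in WT. The WT arrays enclosed both IRF4/8 DKO values. Its log2 difference from WT was -0.06 ± 0.52 (SE) in IRF4/8 DKO, which became 0.16 after median centring and 0.42 without WT replicate 1, and 0.57 ± 0.52 in IRF8 KO.

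Between these ends lie relatives that were not members. Cd300lb, an activating receptor that pairs with DAP12 and is the nearest neighbour of Cd300a in the cluster, was higher on all mutant arrays. It read 862 and 886.9 in IRF4/8 DKO, 941.2 and 848.8 in IRF8 KO, and 172.6 and 130.1 in WT. Over both mutant genotypes it rose 5.58-fold (log2 difference 2.48 ± 0.34 SE, limma adjusted p = 0.0284), and in IRF4/8 DKO alone 5.52-fold (2.46 ± 0.39, limma adjusted p = 0.0478). In IRF8 KO the log2 difference was 2.49 ± 0.39 and did not pass (limma adjusted p = 0.0765). With sex as a block Cd300lb did not pass over both genotypes (limma adjusted p = 0.0823) or in IRF4/8 DKO (0.145). The IRF4/8 DKO call was also lost with a lower or higher pseudocount, without the filter, after quantile normalization and after median centring (limma adjusted p = 0.0507 to 0.0759). Neither call held without either WT array or either IRF4/8 DKO array (limma adjusted p = 0.0764 to 0.556).

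Cd300c2 read 93.8 and 80.8 in IRF4/8 DKO, 41.2 and 56.3 in IRF8 KO, and 61.8 and 57.6 in WT, and Cd300ld was between 5.35 and 84.1 on all arrays.

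**Figure D2:**
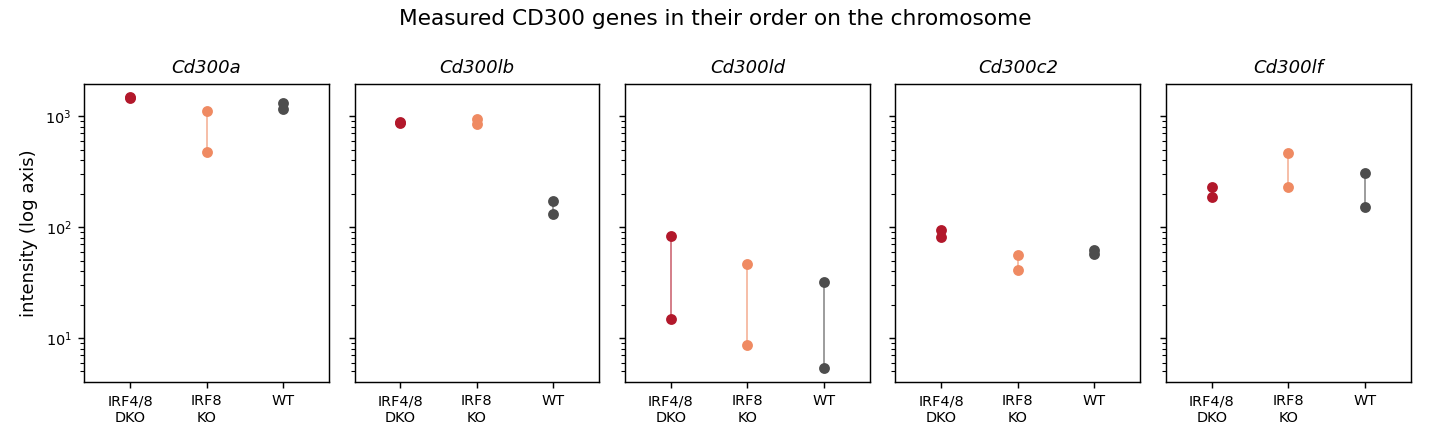
Intensity (log axis) of the 5 CD300 genes with a kept probe set, ordered as on the chromosome, with IRF4/8 DKO left, IRF8 KO in the middle and WT right; each point is 1 array and a line joins the 2 arrays of a genotype. Cd300lb lies between 848.8 and 941.2 on the mutant arrays against 130.1 and 172.6 in WT, while Cd300a beside it lies at 480 or more on every array.

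Sirpa codes for the receptor of the CD47 signal that restrains phagocytosis, and its 3 probe sets were higher in IRF4/8 DKO than in WT. The brightest read 1446 and 2262 in IRF4/8 DKO, 1053 and 1263 in IRF8 KO, and 475.9 and 828.3 in WT, with no overlap between any 2 genotypes. Its log2 difference from WT was 1.51 ± 0.40 (SE) in IRF4/8 DKO, a 2.85-fold higher level, and 0.87 ± 0.40 in IRF8 KO (1.82-fold). The second read 654.7 and 1430.5 in IRF4/8 DKO, 653.6 and 576.8 in IRF8 KO, and 401.7 and 517.5 in WT. The other one read 784.4 and 1013 in IRF4/8 DKO, 455.9 and 869 in IRF8 KO, and 339.6 and 606.7 in WT, so that IRF8 KO overlapped WT there. Log2 differences of these dimmer probe sets from WT were 1.07 and 0.96 in IRF4/8 DKO and 0.42 and 0.46 in IRF8 KO. Sirpa is a marker of myeloid cells, and the summed signal of 9 measured monocyte and macrophage markers had the same order of genotypes. It was 21464 and 27920.2 in IRF4/8 DKO, 18593 and 20658 in IRF8 KO, and 10273 and 10723 in WT. The sum includes Cx3cr1, the one measured marker of that list that did not pass the filter. Of the 8 kept markers, 3 rose in IRF4/8 DKO (limma adjusted p under 0.05, against 0.407% of all genes called in that comparison). Klf4, also kept, went the other way, at 91.5 and 61.8 in IRF4/8 DKO, 117.9 and 17.8 in IRF8 KO, and 279.8 and 460.1 in WT. F13a1 was the largest term of the sum on every array (10018 and 9610 in IRF4/8 DKO). The part of monocytes and macrophages in the Sirpa signal was not tested.

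Lilrb3, or Pirb, codes for PIR-B, an inhibitory receptor for MHC class I molecules. It read 36.4 and 84.0 in IRF4/8 DKO, 20.8 and 243.6 in IRF8 KO, and 14.4 and 14.7 in WT. All mutant arrays lay above both WT arrays, but the WT signal was close to the pseudocount of 10.5 and one IRF8 KO array set the mean of its group. The log2 difference from WT was 1.41 ± 0.84 (SE) in IRF4/8 DKO and 1.83 ± 0.84 in IRF8 KO. Without IRF8 KO replicate 1 the difference in IRF8 KO was 3.34, which rests on the array at 243.6 alone. The array left out there, at 20.8, lay close to the WT values of 14.4 and 14.7. Pirb and Pira genes are near-identical in sequence, so how the probe set divides its signal among them is uncertain.

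Lair1, a receptor for collagens, had 3 probe sets that did not move together. The brightest read 1263 and 818.3 in IRF4/8 DKO, 767.2 and 849.4 in IRF8 KO, and 1185 and 1192 in WT, with both IRF8 KO arrays below WT (log2 difference -0.55 ± 0.36 SE). The second read 349.5 and 523.9 in IRF4/8 DKO, 99.0 and 702.4 in IRF8 KO, and 173 and 198.1 in WT. There the IRF4/8 DKO arrays lay above WT (log2 difference 1.17 ± 0.77 SE) and the IRF8 KO arrays on both sides of it. The other one read 357.1 and 244.2 in IRF4/8 DKO, 108.9 and 378.4 in IRF8 KO, and 222 and 255.6 in WT, with all genotypes overlapping. No direction is given for Lair1 as a gene.

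Pilra, whose protein binds sialylated ligands and is paired with the activating PILRB, did not separate the genotypes. It read 134 and 188.5 in IRF4/8 DKO, 147.6 and 190 in IRF8 KO, and 170.2 and 103.4 in WT. Every genotype overlapped the others, and the log2 difference from WT was 0.24 ± 0.45 (SE) in IRF4/8 DKO and 0.31 ± 0.45 in IRF8 KO, and -0.07 ± 0.45 for IRF4/8 DKO against IRF8 KO, which became 0.01 after median centring. Without WT replicate 2 the differences from WT were -0.09 in IRF4/8 DKO and -0.02 in IRF8 KO. With an SE of this size the overlap does not show that the groups were alike.

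Cd200r1, the receptor for CD200, signals through the adaptors DOK2 and DOK1 instead of ITIMs. Its brighter probe set read 92.7 and 62.2 in IRF4/8 DKO, 85.5 and 92.1 in IRF8 KO, and 76.9 and 71.8 in WT. The IRF8 KO arrays lay above WT by a log2 difference of 0.23 ± 0.41 (SE), and the IRF4/8 DKO arrays lay on both sides. The dimmer one read 69.1 and 43.1 in IRF4/8 DKO, 5.49 and 41.1 in IRF8 KO, and 25.9 and 46.5 in WT, and gave the opposite sign for IRF8 KO against WT (-0.66 ± 0.58). The probe sets of Cd200r1 thus disagreed.

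Counted over the 13 kept probe sets, limma called 0 in each of the 4 comparisons at an adjusted p under 0.05. Among all 29783 probe sets it called 0.299% in IRF4/8 DKO and 0.0302% in IRF8 KO, each against WT, 0.601% for both mutant genotypes together and 0% between the mutants. At an unadjusted p under 0.05 there were 2, 1, 1 and 2 member probe sets in the same order of comparisons, against 9.05%, 13.5%, 11.6% and 8.52% of all probe sets. Arrays of the groups did not overlap for 7, 7, 3 and 5 of the 13, against 43.6%, 45.7%, 21% and 36.6% of all. Of these, 7 were higher in IRF4/8 DKO than in WT. In IRF8 KO against WT 4 were higher and 3 lower, and 5 were higher in IRF4/8 DKO than in IRF8 KO. The median log2 difference over the 13 was 0.52, 0.31, 0.26 and 0.51, against -0.04, -0.06, -0.05 and 0.02 over all probe sets. Nothing is read from these counts, as the genes were selected on the same arrays. Without IRF8 KO replicate 1 the member count was 1 in IRF8 KO against WT and 1 in both genotypes against WT (Lilrb3), and 1 in IRF4/8 DKO against IRF8 KO (Btla). It stayed at 0 in IRF4/8 DKO against WT.

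**Figure D3:**
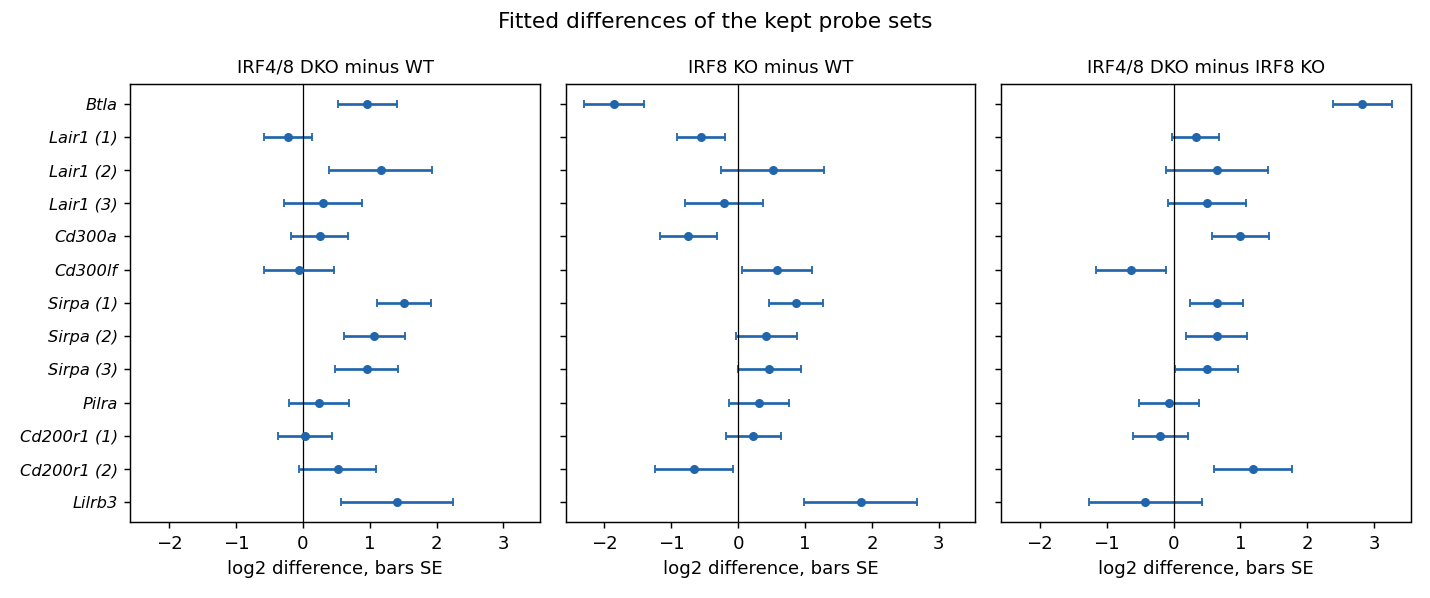
Fitted log2 differences of the 13 kept probe sets (points) with the SE of the limma fit (bars), in IRF4/8 DKO and IRF8 KO, each against WT, and between the mutants (IRF4/8 DKO minus IRF8 KO); numbers in brackets separate probe sets of a gene. Btla has the value furthest from 0, at 2.82 in IRF4/8 DKO against IRF8 KO and -1.86 in IRF8 KO against WT; the values of Cd300lf (IRF4/8 DKO against WT) and Pilra (IRF4/8 DKO against IRF8 KO) change sign after median centring.

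Genes whose signal ran most like that of Btla over the 6 arrays were named by Pearson correlation of log2 values, as a description. Of 2160 genes with a range of at least 2 log2 units, 30 had r over 0.9. Gpr107, which codes for a Golgi-associated transmembrane protein, was the closest, with r = 0.998. It read 333.1 and 415.5 in IRF4/8 DKO, 104.3 and 89.4 in IRF8 KO, and 232.4 and 271.4 in WT. Fahd1 (0.99), Sgcb (0.986), Swsap1 (0.984) and Ube3b (0.974) followed. These profiles share the 6 arrays and their normalization, and each also has its lowest signal in IRF8 KO.

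**Figure D4:**
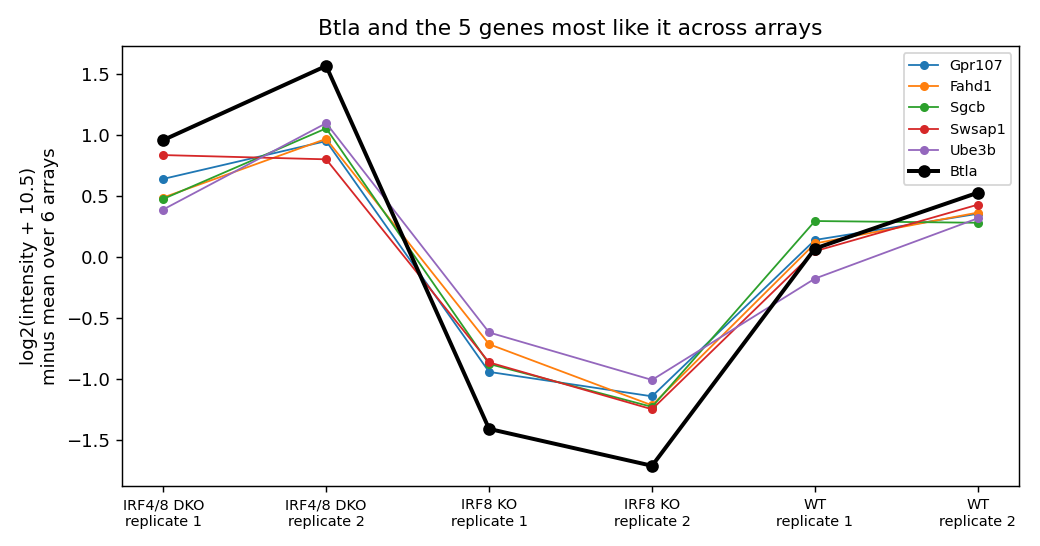
Signal of Btla (black) and of the 5 genes most like it (colours) on each array, as log2(intensity + 10.5) minus the mean of the gene over the 6 arrays, with IRF4/8 DKO left, IRF8 KO in the middle and WT right. All 6 profiles are highest in IRF4/8 DKO and lowest in IRF8 KO, and Btla has the widest span.

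The ligands of the receptors were read in the same cells. Of 15 measured ligand genes limma called 0 in each comparison, with 1, 1, 1 and 2 at an unadjusted p under 0.05 (IRF4/8 DKO, IRF8 KO and both against WT, then IRF4/8 DKO against IRF8 KO). The share called among all 13267 genes was 0.407%, 0.0452%, 0.746% and 0% in that order. At the unadjusted threshold the shares of all kept probe sets were 9.05%, 13.5%, 11.6% and 8.52%. Tnfrsf14, the gene of the BTLA ligand HVEM, read 141.2 and 333.9 in IRF4/8 DKO, 49.5 and 145.3 in IRF8 KO, and 38.4 and 74.3 in WT (limma adjusted p = 0.382 in IRF4/8 DKO against WT). Both IRF4/8 DKO arrays lay above WT, as for Btla, while IRF8 KO overlapped WT. Cd47, the SIRPA ligand, was bright, and its brightest probe set read 7759 and 6583 in IRF4/8 DKO, 5970 and 4286 in IRF8 KO, and 7001 and 7340 in WT. All 5 of its probe sets had both IRF8 KO arrays below both WT arrays, by log2 differences of -0.50 to -1.04, and log2 differences of -0.14 to 0.12 in IRF4/8 DKO. Of all kept probe sets, 45.7% did not overlap between IRF8 KO and WT, in either direction, and probe sets of 1 gene are not independent. None passed limma (adjusted p = 0.128 to 0.384 in IRF8 KO against WT, 0.34 for the brightest). Of the MHC class I gene H2-K1, a ligand family of PIR-B, the brightest probe set read 8554 and 7984 in IRF4/8 DKO, 7702 and 6216 in IRF8 KO, and 6328 and 6873 in WT. Col1a2, which codes for a collagen chain that LAIR1 binds, read 28.2 and 90.03 in IRF4/8 DKO, 63.0 and 46.8 in IRF8 KO, and 121.2 and 62.8 in WT at the probe set of highest mean log2 value. Its 3 probe sets disagreed in sign for IRF8 KO against WT (log2 differences -0.60, -1.69 and 0.39). The second of these read 596.3 in WT replicate 1 and 37.7 in WT replicate 2.

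Of the activating counterparts and adaptors, 1 gene passed the threshold. Of 11 measured genes, 9 lay above WT over both mutant genotypes, against 53.3% of all genes, and Cd300lb rose, against 0.746% of all genes called. Their median log2 difference was 1.12, against 0.03 over all genes. Tyrobp, the DAP12 adaptor gene, read 7358 and 9929 in IRF4/8 DKO, 7210.1 and 8222 in IRF8 KO, and 4597 and 4386 in WT (log2 difference 0.85 ± 0.17 SE over both, limma adjusted p = 0.0741). Fcer1g, the Fc receptor gamma chain gene, read 2405 and 4914 in IRF4/8 DKO, 2977 and 3637 in IRF8 KO, and 1581 and 1256 in WT (limma adjusted p = 0.14). Trem1, a DAP12-linked receptor of myeloid cells, had its brighter probe set at 227.3 and 227.9 in IRF4/8 DKO, 342.5 and 206.4 in IRF8 KO, and 105.7 and 77.4 in WT (limma adjusted p = 0.201). The mutant arrays of these probe sets lay above WT without overlap and none passed (21% of all probe sets did not overlap, in either direction). The dimmer Trem1 probe set read 60.4 and 89.95 in IRF4/8 DKO, 32.6 and 40.1 in IRF8 KO, and 6.71 and 47.9 in WT, so that IRF8 KO overlapped WT there.

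Of the genes listed here as other inhibitory receptors, Siglece, Cd33 and Clec4a2 rose, and how each listed gene signals in mouse cells was not checked. Over both mutant genotypes 3 of 18 measured genes rose and 0 fell, against 0.746% of all genes called. As the list was chosen with earlier results of these data known, that count is a description. In all, 11 lay above and 7 below WT, where 53.3% of all genes lay above, and the median log2 difference was 0.30. Siglece, a sialic acid-binding receptor with ITIMs, read 707.9 and 1700.2 in IRF4/8 DKO, 1916 and 1879 in IRF8 KO, and 30.2 and 101.2 in WT. It rose 21.6-fold over both (log2 difference 4.43 ± 0.51 SE, limma adjusted p = 0.0192) and 16.4-fold in IRF4/8 DKO (4.04 ± 0.59, limma adjusted p = 0.0416), and stood at 4.82 ± 0.59 in IRF8 KO (limma adjusted p = 0.0509). Cd33, another Siglec, read 200.5 and 353.9 in IRF4/8 DKO, 540.5 and 628.2 in IRF8 KO, and 37.9 and 45.1 in WT, and rose 7.82-fold over both (2.97 ± 0.39, limma adjusted p = 0.0251). Clec4a2, a C-type lectin with an ITIM, read 922.5 and 1003 in IRF4/8 DKO, 1040.1 and 828.8 in IRF8 KO, and 129.7 and 234.8 in WT at its brighter probe set, and rose 5.15-fold over both (2.37 ± 0.37, limma adjusted p = 0.036). Its dimmer probe set read 167.6 and 312.9 in IRF4/8 DKO, 32.1 and 32.4 in IRF8 KO, and 14.2 and 37.9 in WT, and did not pass. Vsir, the gene of the checkpoint receptor VISTA, read 5859 and 5347 in IRF4/8 DKO, 5277 and 4135 in IRF8 KO, and 2731 and 3175 in WT at its brighter probe set (limma adjusted p = 0.128). Its dimmer probe set read 1155.6 and 891.9 in IRF4/8 DKO, 926.2 and 542.1 in IRF8 KO, and 359.2 and 590.4 in WT, so that IRF8 KO overlapped WT there. With sex as a block none of these calls over both genotypes held (limma adjusted p = 0.0501 for Siglece, 0.0773 for Cd33 and 0.0871 for Clec4a2), nor that of Siglece in IRF4/8 DKO (0.0963). Without the filter on low values Clec4a2 missed the threshold over both (limma adjusted p = 0.0583) and Siglece in IRF4/8 DKO (0.0703), which Siglece also did after median centring (0.054). The calls depended on single arrays too: the count over both genotypes, 4, was 0 without either WT array and without IRF4/8 DKO replicate 2, and 1 (Siglece) without IRF4/8 DKO replicate 1. It was 6 without IRF8 KO replicate 1 and 4 without the other. In IRF4/8 DKO against WT, where 2 were called, the count was 0 without any 1 of the WT or IRF4/8 DKO arrays and 5 were called without either IRF8 KO replicate. In IRF8 KO against WT, where 0 were called, leaving out 1 of the IRF8 KO arrays gave 6 (replicate 1) and 3 (replicate 2).

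**Figure D5:**
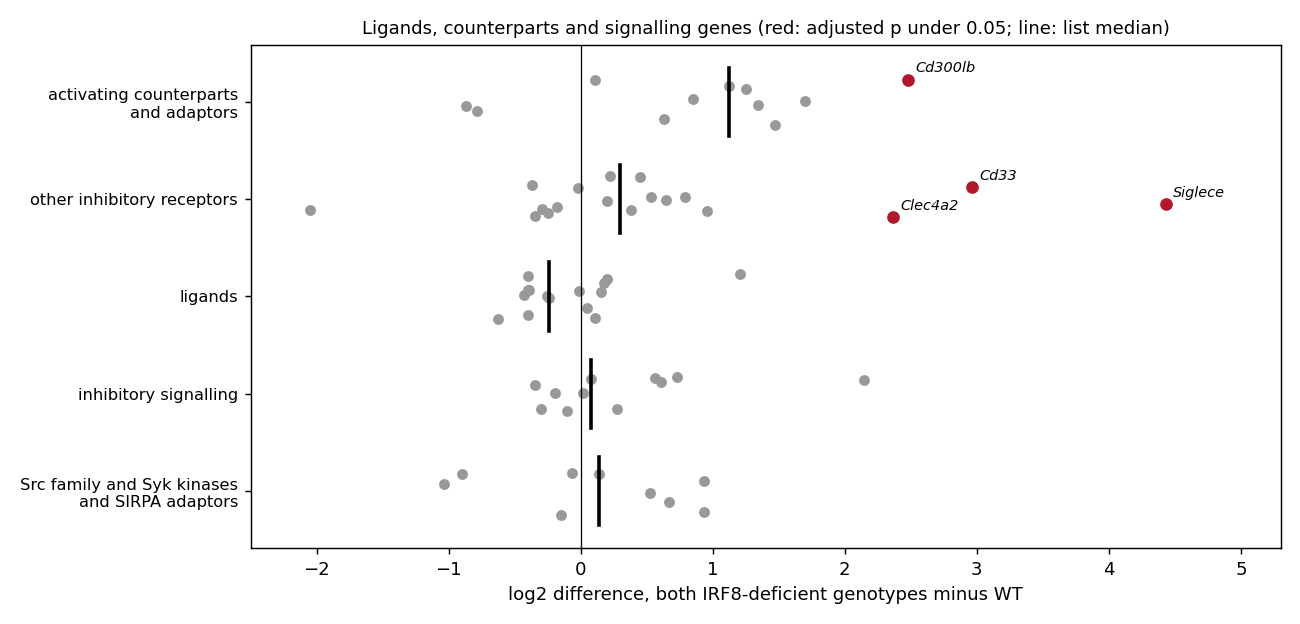
Log2 difference of each measured gene of 5 lists, both mutant genotypes minus WT, with list medians as black lines and genes with a limma adjusted p under 0.05 in red; vertical scatter within a list has no meaning. The 4 red genes are Cd300lb (2.48), Siglece (4.43), Cd33 (2.97) and Clec4a2 (2.37), and the ligands have a median of -0.24.

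The phosphatases and adaptors downstream of ITIMs were measured with 11 genes, and limma called 0 in each comparison. At an unadjusted p under 0.05 there were 2, 1, 1 and 3 in the same order, against 9.05%, 13.5%, 11.6% and 8.52% of all kept probe sets. Ptpn6, the SHP-1 gene, read 1519 and 3990.1 in IRF4/8 DKO, 1741 and 2628 in IRF8 KO, and 1153 and 1658 in WT at its brighter probe set. Inppl1, which codes for the lipid phosphatase SHIP-2, had the widest separation of this list. It read 144.7 and 93.8 in IRF4/8 DKO, 8.69 and 15.3 in IRF8 KO, and 19.6 and 30.02 in WT. Its log2 difference was 2.51 ± 0.42 (SE) for IRF4/8 DKO against IRF8 KO (limma adjusted p = 0.427) and 1.86 ± 0.42 for IRF4/8 DKO against WT (limma adjusted p = 0.15). Dok3, an adaptor that restrains immune receptor signals, read 878 and 3694 in IRF4/8 DKO, 2214 and 2478 in IRF8 KO, and 579.6 and 360.2 in WT (2.14 ± 0.52 over both, limma adjusted p = 0.134). Dok1, a related adaptor, read 877.9 and 1193 in IRF4/8 DKO, 841.7 and 1438 in IRF8 KO, and 756.2 and 679.5 in WT.

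Kinases that phosphorylate or are restrained by these receptors, and the adaptors of SIRPA, gave 9 measured genes. Limma called 0 in each comparison, with 2, 3, 2 and 2 at an unadjusted p under 0.05 in the same order. Of all kept probe sets, 9.05%, 13.5%, 11.6% and 8.52% passed that unadjusted threshold. Fyb, an adaptor gene, read 269.9 and 209 in IRF4/8 DKO, 154.2 and 137.8 in IRF8 KO, and 546.2 and 282.2 in WT at its brighter probe set (log2 difference -1.04 ± 0.40 SE over both, limma adjusted p = 0.363). Grap2, an adaptor of the GRB2 family, read 9.45 and 7.02 in IRF4/8 DKO, 41.6 and 52.8 in IRF8 KO, and 8.25 and 5.2 in WT, so that it stood apart in IRF8 KO alone while the other groups lay below the pseudocount. Fyn, a Src family kinase gene, read 48.7 and 28.3 in IRF4/8 DKO, 82.3 and 104.3 in IRF8 KO, and 183.6 and 77.8 in WT at its brighter probe set. Its dimmer probe set read 27.6 and 42.95 in IRF4/8 DKO, 55.25 and 22.0 in IRF8 KO, and 142.5 and 65.4 in WT. Ptk2b, a focal adhesion kinase relative that SIRPA engages, read 927.3 and 1327 in IRF4/8 DKO, 1018 and 1780 in IRF8 KO, and 860.4 and 676.2 in WT at its brighter probe set. The dimmer Ptk2b probe set read 64.6 and 78.2 in IRF4/8 DKO, 28.5 and 28.2 in IRF8 KO, and 54.2 and 106.6 in WT. The 2 probe sets thus had opposite signs for IRF8 KO against WT (log2 differences 0.81 and -1.16).

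Markers of several other cell types also moved with genotype, and the part of other cells in the receptor signals was not tested. The summed signal of 8 mature neutrophil markers overlapped between genotypes, at 20751 and 42506 in IRF4/8 DKO, 25312 and 43733 in IRF8 KO, and 12432 and 29902 in WT. S100a8 and S100a9 were its largest terms. Cxcr2 was lower in IRF8 KO (45.5 and 81.9) than in WT (215.5 and 140.3). B cell markers summed to 1216 and 1893 in IRF4/8 DKO, 1541 and 1960 in IRF8 KO, and 754.3 and 699.5 in WT. That sum took in 7 measured genes, of which 5 passed the filter and the defining genes Pax5 and Ms4a1 did not. T and NK cell markers summed to 1289 and 2098 in IRF4/8 DKO, 1318 and 1831 in IRF8 KO, and 823.9 and 1126 in WT. That sum took in 6 measured genes, of which 3 passed the filter and Cd3d, Cd3e and Cd3g did not. Single genes carried these sums: Vpreb1 read 668 and 1006 in IRF4/8 DKO, 770.9 and 1275 in IRF8 KO, and 186.8 and 185.3 in WT, and Nkg7 read 1181 and 2023 in IRF4/8 DKO, 1199.7 and 1709.6 in IRF8 KO, and 705.8 and 1023 in WT. Cd79a read 62.9 and 60.8 in IRF4/8 DKO, 53.3 and 37.2 in IRF8 KO, and 71.9 and 66.3 in WT, lowest in IRF8 KO. Dendritic cell markers summed to 279.1 and 212 in IRF4/8 DKO, 404.9 and 345 in IRF8 KO, and 530.9 and 387.8 in WT. That sum took in 9 measured genes, of which 5 passed the filter and Batf3, Cd209a, Siglech and Xcr1 did not. H2-Aa carried much of that order. It read 10.8 and 12.7 in IRF4/8 DKO, 120.2 and 156.2 in IRF8 KO, and 206.5 and 174.3 in WT. Itgax went the other way, at 18.8 and 27.0 in IRF4/8 DKO, 23.1 and 33.8 in IRF8 KO, and 17.7 and 17.2 in WT. Flt3, also kept, overlapped between all genotypes. Erythroid, megakaryocyte, and eosinophil, basophil and mast cell markers were lower on the mutant arrays than on either WT array, except that 1 IRF8 KO array overlapped WT for megakaryocyte markers (993.3 and 476.6 in IRF8 KO, 3246 and 829.9 in WT). Erythroid markers summed to 250.9 and 159.9 in IRF4/8 DKO, 1014 and 229.9 in IRF8 KO, and 5928 and 2237 in WT. Eosinophil, basophil and mast cell markers summed to 479.2 and 567.2, 4047 and 1724, and 12706 and 7793 in that order. Over both mutant genotypes limma called 2 of 6 kept erythroid, 1 of 4 megakaryocyte and 4 of 7 eosinophil, basophil and mast cell genes lower. Of all genes 0.746% were called there.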

How the data were processed

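RNA of sorted GMPs was measured on 6 arrays, 2 for each of 3 genotypes, grouped by the sample labels. The authors deposited linear intensity values, normalized and modelled from perfect-match minus mismatch differences by dChip 1.3, according to the design text of the series; the sources used here do not give the baseline array or the treatment of low values. Precision is limited by the number of arrays. Nothing says that the arrays of a genotype came from more than 1 cohort, and p-values measure the spread between these samples only.

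Values were taken as log2(value + 10.5), the 25th percentile. Of 45037 probe sets, 29783 lay above the 40th percentile of their array on at least 2 arrays and were kept. One limma 3.58.1 model (R 4.3.3) held all 3 genotypes (empirical Bayes with trend, 3 residual and 5.84 prior degrees of freedom), with Benjamini-Hochberg adjustment over all kept probe sets and a threshold of 0.05. For a gene, the kept probe set of highest mean log2 value stood in. Both comparisons with WT share the WT arrays. Symbols came from the platform annotation, updated through RefSeq names: 34945 probe sets had 1 symbol, 932 several and 9160 none. Named are all members, list genes past the threshold and up to 4 per list with the lowest p over both mutant genotypes, Irf8, Irf4, and the 5 genes most like Btla; Cd300c2, Cd300ld and the genes given under the results for a closer look besides these were added once their values had been seen. The members and lists were chosen with earlier results of these data known. The fit was tested on simulated data. Alternatives were 2 other pseudocounts (3.9 and 39.23), quantile normalization, median centring, no filter, a 60th percentile filter, sex, age, the replicate number, and leaving out each array.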

Additional observations from a re-analysis of the deposited data

Results flagged for a closer look

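Each of 7 genes had both arrays of one mutant genotype on one side of both WT arrays and both arrays of the other on the opposite side. The log2 difference of IRF4/8 DKO minus IRF8 KO was 2.82 for Btla, 1 for Cd300a, 0.73 for Cd300c2, 0.24 for B2m, 2.51 for Inppl1 and 1.07 for Grb2, all higher in IRF4/8 DKO. It was -2.29 for Src, which read 2.85 and 1.45 in IRF4/8 DKO, 51.3 and 51.5 in IRF8 KO, and 17.7 and 12.3 in WT, so that its size depends on the pseudocount. The limma test of IRF4/8 DKO against IRF8 KO called none of these (adjusted p = 0.364 for Src, 0.427 for Inppl1, 0.548 for Grb2, 0.644 for Cd300c2 and 0.677 for B2m), and Btla and Cd300a were selected on these arrays. Over all kept probe sets, 1.53% had the arrangement of Btla and 1.72% that of Src.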

How the results depend on the processing

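Over the 15 alternatives, 480 log2 differences of the members' representative probe sets gave 17 changes of sign, and 3 values newly passed. The count of member probe sets called stayed at 0 under 14 of them. It ranged over the left-out arrays from 0 to 1 in IRF8 KO against WT, in IRF4/8 DKO against IRF8 KO and in both against WT, with log2 differences of 3.34 and 2.38 for Lilrb3 and 2.97 for Btla, each without IRF8 KO replicate 1. The lone array of a group was then assumed to vary like the other groups.

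List genes called in IRF8 KO against WT (0) were 2 with the pseudocount of 3.9, 2 with the filter at the 60th percentile, 2 after quantile normalization and 3 with age, and 0 to 6 without 1 array. In IRF4/8 DKO against WT (2) they were 1 with either other pseudocount and after quantile normalization, 0 without the filter, after median centring and with sex as a block, and 0 to 5 without 1 array. In IRF4/8 DKO against IRF8 KO (0) they were 0 to 1 without 1 array. In both against WT (4) they were 3 without the filter, 0 with sex as a block and 0 to 6 without 1 array. Siglece, Cd33, Cd300lb and Clec4a2 kept their sign against WT throughout. Whether the replicate number paired the samples is not known from the labels. Deviations of same-numbered arrays correlated at 0.211 between the mutants, 0.188 between IRF4/8 DKO and WT, and 0.041 between IRF8 KO and WT. Mature neutrophil markers summed higher on replicate 2 in every genotype. As a block the replicate number gave 4 list genes in IRF8 KO against WT, 5 in IRF4/8 DKO against WT and 6 in both against WT. Over the whole table it gave 209 probe sets in IRF8 KO and 216 in IRF4/8 DKO against WT, where 9 and 89 were called without it.

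Over the whole table, the 9 probe sets called in IRF8 KO against WT became 21 and 5 with the lower and higher pseudocount, 5 without the filter, 17 with the stricter one, 30 after quantile normalization, 2 with sex and 136 with age. The 89 in IRF4/8 DKO against WT became 13 without the filter, 45 after median centring, 0 with sex and 229 with age. The 179 in both against WT became 70 without the filter, 116 with the stricter one, 109 after median centring, 8 with sex, 391 with the replicate block and 355 with age. In IRF4/8 DKO against IRF8 KO 0 became 1 with the replicate block and 2 with age. Left-out arrays gave 0 to 1090 in IRF8 KO, 0 to 484 in IRF4/8 DKO and 0 to 1020 in both against WT, and 0 to 200 between the mutants. Median centring moved the median of all log2 differences to 0.18 in IRF4/8 DKO against WT, from -0.04. The share of calls that were higher, 30.3%, 33.3% and 31.3% for IRF4/8 DKO, IRF8 KO and both against WT, was 42.2%, 50% and 44.0% after median centring, and 43.3% in IRF8 KO after quantile normalization. It was 70.6% with the stricter filter and 52.4% with the lower pseudocount in IRF8 KO, 53.9% without the filter in IRF4/8 DKO, and 46.5% with the stricter filter and 62.5% with sex as a block in both. The cause was not tested.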
